A study of Mus musculus with 18 samples.

Results

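The 5 genes described here take iron into the cell or make or break down heme, and were followed through osteogenic culture of MC3T3-E1 cells: Tfrc, Steap1, Steap2, Cpox and Hmox2. They were found by their symbols, as 5 of the 40620 rows of the deposited count table. The study sequenced RNA of MC3T3-E1, a mouse preosteoblast line from newborn calvaria, in which Rcor2, a corepressor of the CoREST family, was to be silenced by a lentiviral short hairpin. The 3 constructs were the control shScramble and 2 hairpins against Rcor2, shRcor2-18 and shRcor2-20, so that every group, controls included, carried a hairpin. There were 2 samples for each construct at each of the times 0h, 24h and 7d. Differentiation was induced with beta-glycerophosphate (5 mM), ascorbic acid (50 µg/ml) and dexamethasone (10 nM). The times are those of the sample titles, and the time field of the labels also gives 7d. The protocol names harvests before and at confluence, after 24h and after 14 and 21 days, but none at day 7, so what 7d stands for rests on the titles and that field. The labels do not state whether samples of a group came from separate cultures. The p-values then measure only their spread, which may be technical.

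Cells take up most of their iron as ferric iron on transferrin, which binds the transferrin receptor Tfrc at the surface and enters by endocytosis. In the acidic endosome the iron is released and must be reduced before it can cross the membrane, a step that metalloreductases of the STEAP family carry out. Part of the iron goes to the mitochondria, where it is inserted into protoporphyrin to make heme, and Cpox catalyses one of the last steps before that insertion. Heme oxygenases open the heme ring and release the iron again. The mRNA of Tfrc carries iron-responsive elements, which stabilise it when iron is short. In bone, iron is needed by the hydroxylases that modify collagen, and excess iron is known to hamper osteoblasts.

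The starts of 4 of these genes are shown because the pairs Tfrc and Cpox, and Steap1 and Steap2, correlated over the libraries, as described further on. This was not particular to the pairs: each of the 4 genes correlated more closely with the 3 genes named below as nearest to it. The sequences come from RefSeq promoters on build GRCm38.p6. Each gives 250 bases before an annotated transcript start and the first 20 bases after it, on the strand of the gene. The first pair lies on chromosome 16, at chr16:32608646-32608915 on the plus strand for Tfrc and at chr16:58669958-58670227 on the plus strand for Cpox. Capitals mark ACGTG, the core of the hypoxia response element, searched on both strands. Tfrc has 2 listed starts, of which 1 is shown, and the windows of both hold 1 match each.
Tfrc: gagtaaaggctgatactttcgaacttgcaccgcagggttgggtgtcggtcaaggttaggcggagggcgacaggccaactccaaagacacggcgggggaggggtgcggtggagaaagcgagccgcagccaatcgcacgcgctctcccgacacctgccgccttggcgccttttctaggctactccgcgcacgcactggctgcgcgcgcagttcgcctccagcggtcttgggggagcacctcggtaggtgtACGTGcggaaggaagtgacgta
Cpox: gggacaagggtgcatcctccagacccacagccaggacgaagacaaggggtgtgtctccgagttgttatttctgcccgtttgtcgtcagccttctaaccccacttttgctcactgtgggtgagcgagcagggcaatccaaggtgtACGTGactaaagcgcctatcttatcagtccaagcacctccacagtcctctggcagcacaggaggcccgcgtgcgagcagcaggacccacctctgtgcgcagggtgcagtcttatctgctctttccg
Each of these windows held 1 match to ACGTG, which 19.6% of the 32851 mouse promoter windows of 300 bases hold. The match lies within an 11-base run that both windows share, aggtgtACGTG. This run stands in 6 of the 32851 windows, but a shared run of some kind as long as this was less rare: 4.55% of the windows of other genes share a run of 11 bases with that of Tfrc, and 2.78% with that of Cpox. The Cpox window also held 2 matches to GATAA, the core of the sites of GATA factors, which 25.4% of windows hold. These matches describe the letters only.

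The second pair lies on the minus strand of chromosome 5, at chr5:5749298-5749567 for Steap1 and at chr5:5694070-5694339 for the most downstream of the 3 listed Steap2 starts. Capitals mark GGGCGG, the GC box, on both strands.
Steap1: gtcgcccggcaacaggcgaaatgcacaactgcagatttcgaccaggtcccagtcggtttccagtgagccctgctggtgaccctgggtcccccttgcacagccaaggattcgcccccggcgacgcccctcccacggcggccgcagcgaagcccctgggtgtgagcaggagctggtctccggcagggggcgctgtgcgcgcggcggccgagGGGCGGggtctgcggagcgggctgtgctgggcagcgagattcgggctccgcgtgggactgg
Steap2: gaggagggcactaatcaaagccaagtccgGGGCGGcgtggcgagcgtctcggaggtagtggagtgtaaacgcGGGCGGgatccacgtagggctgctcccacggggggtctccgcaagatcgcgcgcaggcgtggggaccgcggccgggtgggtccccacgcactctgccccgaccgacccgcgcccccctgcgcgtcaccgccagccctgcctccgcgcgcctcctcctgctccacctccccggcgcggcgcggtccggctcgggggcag
The stretch shown holds 1 match for Steap1 and 2 for Steap2, and 35.7% of all windows hold at least 1. The Steap2 start with the most matches was chosen to be shown: the whole windows of its 3 starts hold 0, 1 and 3. The stretch shown for Steap2 also holds 1 match to ACGTG on the other strand, not in capitals here, so that among these genes ACGTG is not limited to Tfrc and Cpox. GC made up 71.5% of the bases shown for Steap1 and 75.2% of those for Steap2.

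In most of this table the row names do not match the reads. Names were therefore trusted only in stretches, from the start of a chromosome, in which coding rows were often detected. Genes of families that nearly all cells express weighed more in this search, but not every stretch held one. Tfrc, Cpox and Hmox2 lie in such a stretch of 611 coding rows on chromosome 16, in which 18 of 19 genes of commonly expressed families reached a mean of 20 CPM, the count scaled to library size. Steap1 and Steap2 lie in a stretch of 34 coding rows on chromosome 5, where 20 of 29 scored genes were detected. It held no family member, so these names are less certain. Both stretches were set by the detection of these same genes, so the counts are not an independent check. Rcor2 itself lies outside the stretches. Its row held 195 to 238 CPM with shScramble, 207 to 227 CPM with shRcor2-18 and 210.0 to 268 CPM with shRcor2-20, and these values do not check the knockdown. None of 12 osteoblast markers lay in a stretch, so the label of the cells could not be checked with them. Of 13 markers of other cell types that did, 12 stayed under 2 CPM at every time. The exception was the hepatocyte marker Fetub, at means of 21.1, 21.6 and 20.7 CPM at 0h, 24h and 7d. No myoblast or erythroid marker lay in a stretch.

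Sample 1 of each construct at 0h was left out by the rule that set the genes and libraries described here. This left 1 library per construct at 0h and 2 per construct at 24h and 7d. The 3 libraries left out detected 11942 to 14355 rows, at totals of 2572030 (shScramble), 7181420 (shRcor2-18) and 9798500 (shRcor2-20) counts. The other 15 detected 16555 to 18277 rows, at totals of 3504810 to 6139320 counts. Within each construct, libraries of the same number deviated together at 24h and 7d. Yet at both times every library lay nearest, over 530 rows, to a library of another construct. These partners were shScramble 1 with shRcor2-18 1, shScramble 2 with shRcor2-20 1, and shRcor2-18 2 with shRcor2-20 2. The standard deviation of the log2 difference was 0.157 to 0.245 between partners and 0.327 to 0.458 between samples of one group. Libraries of different constructs were thus closer than the samples of one label. A fit of the 12 libraries of 24h and 7d with a block for the pairs is given beside the results it bears on. It cannot include 0h.

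All 5 genes were well measured, with 135 to 3956 counts per library. Levels are compared between genes per kb of annotated exon, as CPM per kb (mean ± SD), with the exon lengths of GENCODE vM21. At 0h Steap1 stood highest at 93.0 ± 8.46 (n = 3), followed by Hmox2 at 81.5 ± 6.73, Steap2 at 59.2 ± 4.96, Tfrc at 35.4 ± 7.29 and Cpox at 13.1 ± 0.767. The ranges of Steap1 and Hmox2 overlapped there, while those of the other neighbours did not. At 7d the order was Hmox2 at 76.1 ± 5.80 (n = 6), Tfrc at 51.5 ± 17.3, Steap2 at 30.4 ± 2.51, Steap1 at 29.6 ± 4.50 and Cpox at 12.9 ± 1.61. Steap1 had thus moved from the first place to the fourth, level with Steap2. At 7d the ranges of Hmox2 and Tfrc, of Tfrc and Steap2, and of Steap2 and Steap1 overlapped.

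**Figure D1:**
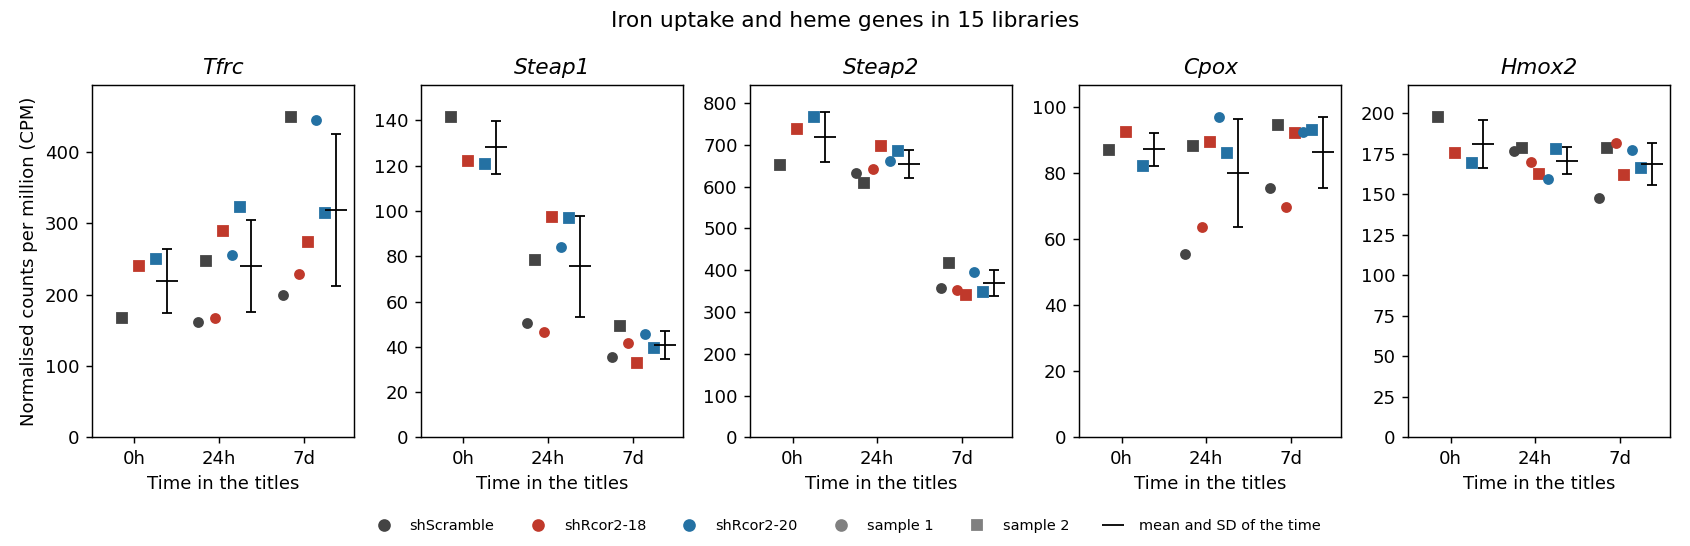
Level of each gene (y axis, normalised CPM, from 0) by time (x axis) in 15 libraries; colours are constructs, shapes are sample numbers, and the bar beside each time is the mean ± SD over the constructs (n = 3 at 0h, 6 at 24h and 6 at 7d). Steap2 and Steap1 are lowest at 7d, Tfrc spreads from 199.5 to 449 CPM at 7d, and Hmox2 stays between 148 and 198 CPM throughout.

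The question put to the 3 times was how expression changed as the cells were held in osteogenic culture. No culture without induction is among the samples of 24h and 7d. Effects of the osteogenic additions, of time in culture and of confluence therefore cannot be told apart. Over all 12930 rows tested with edgeR at an adjusted p under 0.05, 5.76% were called between 7d and 0h, 2.34% between 7d and 24h and 1.86% between 24h and 0h. Of the 5 genes, 2 were called between 7d and 0h, both lower, a direction that 2.49% of rows took. Between 7d and 24h, 1 was called, also lower, as were 1.18% of rows. None was called between 24h and 0h. Among rows more like these genes the shares were higher. Of the 630 coding rows in trusted stretches, fitted alone, 27.5% were called between 7d and 0h, 14.1% lower, and 17.1% between 7d and 24h, 8.73% lower. Of the 5041 rows with a mean of at least 20 CPM, 14.4% were called between 7d and 0h, 6.80% lower, and 8.71% between 7d and 24h, 4.25% lower. These comparisons share libraries, so their values are set side by side and not counted as separate evidence. In bulk RNA, fewer cells that express a gene and less RNA per cell cannot be told apart.

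Steap2, a metalloreductase that can reduce iron and copper, fell late. It was at 651, 738 and 767 CPM in the 3 libraries at 0h, which are those of shScramble, shRcor2-18 and shRcor2-20. At 24h its lowest, median and highest values were 608, 652 and 697 CPM, and at 7d they were 342, 355 and 418 CPM. All 6 libraries at 7d lay below all those of 0h and 24h, while 0h and 24h overlapped. Over the rows tested, 5.01% had libraries that did not overlap between 7d and 24h, and 14.9% between 7d and 0h.

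The fall of Steap2 was 1.77-fold from 24h to 7d, with a log2 difference of -0.83 ± 0.067 (SE) and an edgeR adjusted p of 0.00258. From 0h to 7d it was 1.94-fold, with a log2 difference of -0.96 ± 0.079 and an edgeR adjusted p of 0.000718. From 0h to 24h the log2 difference was -0.13 ± 0.081, which did not pass (edgeR adjusted p = 0.617). The fall from 24h to 7d was there in each construct. Mean levels went from 620 ± 17.9 to 388 ± 42.1 CPM with shScramble (n = 2 at each time), from 669 ± 39.2 to 347 ± 7.15 CPM with shRcor2-18 and from 674 ± 16.8 to 372 ± 32.9 CPM with shRcor2-20. With a block for the partner pairs the difference from 24h to 7d was -0.82 ± 0.062 (edgeR adjusted p = 0.00453). In the 6 pairs of one construct and number, 7d stood at 0.490 to 0.687 of 24h. With all 18 libraries the difference from 24h to 7d was -0.81 on the log2 scale with an SE of 0.18, against 0.067 with 15 libraries, and was no longer called (edgeR adjusted p = 0.123).

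Steap1, the family member known as an electron-transferring partner that lacks the nicotinamide-binding part of its relatives, had already left its 0h range at 24h. It was at 142 CPM in the shScramble library, 122 CPM in the shRcor2-18 library and 121 CPM in the shRcor2-20 library at 0h. Its lowest, median and highest values were 46.4, 81.2 and 97.5 CPM at 24h, and 32.7, 40.6 and 49.2 CPM at 7d. Every library at 24h and at 7d lay below all 3 at 0h, and 24h and 7d overlapped at their edges. Between 24h and 0h, 7.77% of rows did not overlap.

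From 0h to 7d Steap1 fell 3.14-fold, with a log2 difference of -1.65 ± 0.25 and an edgeR adjusted p of 0.00797. In a fit with a replicate block for the 2 sample numbers of a construct the difference was -1.49 ± 0.27 and the call was lost (edgeR adjusted p = 0.0611). The step from 0h to 24h was -0.77 ± 0.25 on the log2 scale (edgeR adjusted p = 0.251) and that from 24h to 7d -0.88 ± 0.21 (edgeR adjusted p = 0.0739), and neither passed. With a block for the partner pairs the latter was -0.84 ± 0.20 (edgeR adjusted p = 0.0696). Without that block it passed with DESeq2 (adjusted p = 0.00579), and with edgeR on the in-register rows alone (adjusted p = 0.0131), on rows of at least 20 CPM (adjusted p = 0.0413) and without the shRcor2-18 library of sample 1 at 24h (adjusted p = 0.0340). In the other 22 of 26 alternatives the step from 24h to 7d was not called, among them all 18 libraries (edgeR adjusted p = 0.273). All 6 pairs of one construct and number were lower at 7d, at 0.336 to 0.901 of their value at 24h.

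Because both genes share the scaling of each library, the ratio of their counts needs no normalisation. Steap2 had 4.60 to 6.35 counts for each count of Steap1 at 0h, 7.08 to 13.8 at 24h and 8.42 to 10.4 at 7d. The ratio in the 3 libraries used at 0h thus lay below that of every later library, while 24h and 7d overlapped. This did not hold for the libraries of sample 1 at 0h, which were left out. In these Steap2 was at 1070, 983 and 1265 CPM and Steap1 at 107, 99.4 and 224 CPM in shScramble, shRcor2-18 and shRcor2-20, scaled by library size only. In shScramble and shRcor2-18 the ratio then lay among those of 24h and 7d. No share of other gene pairs that separate in this way is given here. The 2 highest ratios, 12.5 and 13.8, were those of the partner libraries shScramble 1 and shRcor2-18 1 at 24h, in which Steap1 was lowest. Over the 15 libraries Steap1 and Steap2 correlated at r = 0.85, a description across libraries that share times and constructs.

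**Figure D2:**
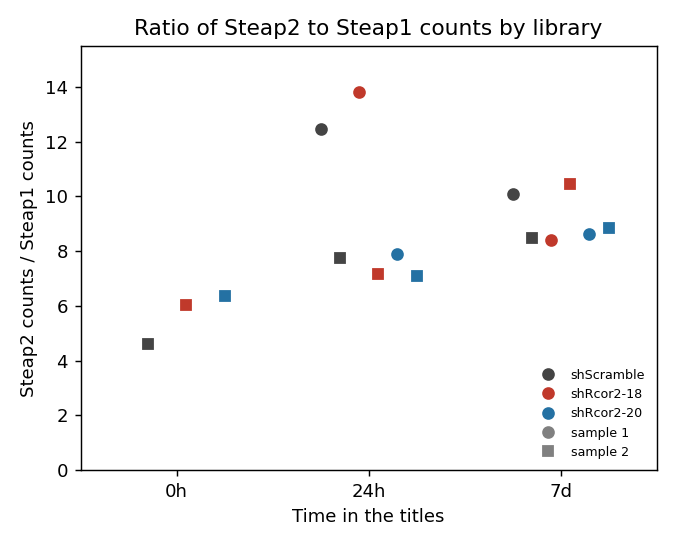
Counts of Steap2 divided by counts of Steap1 (y axis, from 0) by time (x axis), 1 point per library; colours are constructs and shapes are sample numbers. The 3 points at 0h, up to 6.35, lie below all 12 later ones, which start at 7.08. Sample 1 of each construct at 0h was left out and is not shown.

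Tfrc, the transferrin receptor, had no called change with time. It was at 167, 240.0 and 249.6 CPM at 0h in shScramble, shRcor2-18 and shRcor2-20. Its lowest, median and highest values were 161, 251 and 323 CPM at 24h and 199.5, 294 and 449 CPM at 7d, and all 3 times overlapped. The log2 difference was 0.40 ± 0.24 between 7d and 24h (edgeR adjusted p = 0.447), 0.54 ± 0.30 between 7d and 0h (edgeR adjusted p = 0.361) and 0.14 ± 0.30 between 24h and 0h (edgeR adjusted p = 0.966). With a block for the partner pairs the first was 0.39 ± 0.15 (edgeR adjusted p = 0.209). Without the block, leaving out 1 library at a time gave 0.17 to 0.56 for it and 0.31 to 0.78 for that between 7d and 0h, the lowest of both being without the shScramble library of sample 2 at 7d. The differences of 7d and 24h from 0h depend on the libraries at 0h: with all 18 libraries they were -0.23 and -0.64 (edgeR adjusted p = 0.706 and 0.305).

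The Tfrc levels followed the partner pairs, which had been found in these same data. So did most of the 535 in-register rows. In 71.4% of them at 24h and 65.2% at 7d, pair means differed more than the partners of any pair. At 24h the pair of shScramble 1 and shRcor2-18 1 was at 161 and 168 CPM, that of shScramble 2 and shRcor2-20 1 at 247 and 255 CPM, and that of shRcor2-18 2 and shRcor2-20 2 at 290 and 323 CPM. At 7d the same pairs were at 199.5 and 230, at 449 and 445, and at 274 and 315 CPM. Partners differed by at most 1.11-fold at 24h and 1.15-fold at 7d. The highest pair mean was 1.86 times the lowest at 24h and 2.08 times at 7d, a span that 6.17% and 2.99% of 535 in-register rows reached. Samples of one label differed by 1.19-fold to 2.25-fold at 7d. The order of the pairs was not the same at both times: the pair of shRcor2-18 2 and shRcor2-20 2 led at 24h and that of shScramble 2 and shRcor2-20 1 at 7d. From 24h to 7d Tfrc was higher in 4 of the 6 libraries, by up to 1.82-fold, and close to its former level in both libraries of the leading pair at 24h.

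**Figure D3:**
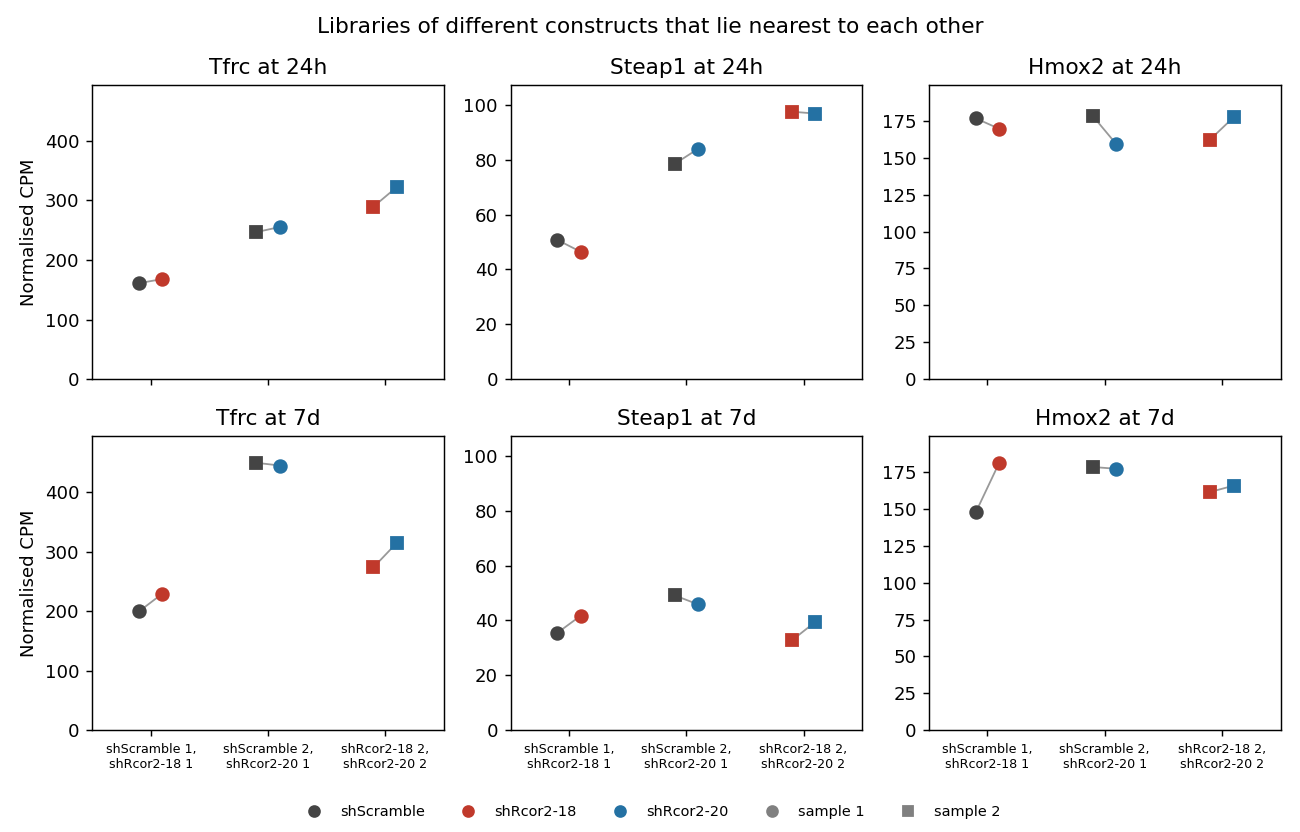
Levels of Tfrc, Steap1 and Hmox2 (y axis, normalised CPM, from 0) in the 3 partner pairs (x axis) at 24h and 7d; each line joins the 2 libraries of a pair, colours are constructs and shapes are sample numbers. Tfrc at both times and Steap1 at 24h are near-equal within pairs and differ between them, by up to 2.08-fold for Tfrc, while Hmox2 does not separate by pair.

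Steap1 at 24h followed the pairs as well. Its levels were 50.7 and 46.4 CPM in the pair with shScramble 1, 78.4 and 84.0 CPM in that with shScramble 2, and 97.5 and 96.8 CPM in that without shScramble. The highest pair mean was 2.00 times the lowest, as far apart as in 3.74% of the 535 rows. At 7d the same ratio was 1.32, which 35.0% of rows reached, so the spread of Steap1 over the pairs was then ordinary. Steap2 spanned 1.09-fold over the pairs at 24h, where 83.9% of rows spanned as much.

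Cpox, coproporphyrinogen oxidase of heme synthesis, was the lowest of the 5 per kb. It was at 86.9, 92.2 and 82.0 CPM at 0h in shScramble, shRcor2-18 and shRcor2-20. Its lowest, median and highest values were 55.5, 87.0 and 96.9 CPM at 24h and 69.7, 92.2 and 94.5 CPM at 7d, so that the times overlapped. Its log2 difference was 0.11 ± 0.15 between 7d and 24h (edgeR adjusted p = 0.797) and -0.015 ± 0.19 between 7d and 0h (edgeR adjusted p = 1.00). Its low values were those of the pair in which Tfrc was also lowest, at 55.5 and 63.7 CPM at 24h and 75.5 and 69.7 CPM at 7d, with the other 8 libraries of these times at 86.1 to 96.9 CPM. Over the 15 libraries Cpox and Tfrc correlated at r = 0.68.

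Hmox2, the constitutive heme oxygenase, varied least. It was at 198, 175 and 169 CPM at 0h. Its lowest, median and highest values were 159, 173 and 178 CPM at 24h and 148, 172 and 181 CPM at 7d, with all times overlapping. Its coefficient of variation over the 15 libraries was 6.81%, against 14.7% for Cpox, 29.2% for Steap2, 33.0% for Tfrc and 50.1% for Steap1. The log2 difference between 7d and 24h was -0.017 ± 0.075 (edgeR adjusted p = 0.984) and that between 7d and 0h -0.097 ± 0.091 (edgeR adjusted p = 0.631).

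Whether the Rcor2 hairpins changed these genes was asked at each time, over the times and for each hairpin alone. None of the 5 genes was called in any of the 7 comparisons with shScramble, in which 0.155% of all rows were called at 0h, 0.0155% at 24h and 0.0387% at 7d. Over the times the share was 0.00773%. For shRcor2-18 alone the share was 0.101%, for shRcor2-20 alone 0.0387%, and for the change of the knockdown between 24h and 7d 0.0541%. Under every alternative tried the lowest adjusted p of these genes was 0.543.

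Averaged over the 3 times and both hairpins, Tfrc had the largest difference from control of the 5 genes, 0.27 ± 0.24 on the log2 scale (edgeR adjusted p = 0.907). It was 0.11 ± 0.28 with shRcor2-18 and 0.44 ± 0.28 with shRcor2-20 (edgeR adjusted p = 1.00 and 0.897). Both hairpins together differed by 0.55 ± 0.52 at 0h, with 1 library per construct, by 0.33 ± 0.37 at 24h and by -0.069 ± 0.36 at 7d. With a block for the partner pairs these were 0.23 ± 0.25 at 24h and -0.095 ± 0.24 at 7d, and none of the 5 genes was called in that fit. Steap2 and Hmox2 were measured more closely: at 7d Steap2 differed by -0.11 ± 0.099 and Hmox2 by 0.072 ± 0.11, and over the times they differed by 0.071 ± 0.066 and -0.070 ± 0.075 (edgeR adjusted p = 0.918 and 0.946). Steap1 differed by 0.0047 ± 0.21 and Cpox by 0.083 ± 0.15 over the times (edgeR adjusted p = 1.00 for both).

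**Figure D4:**
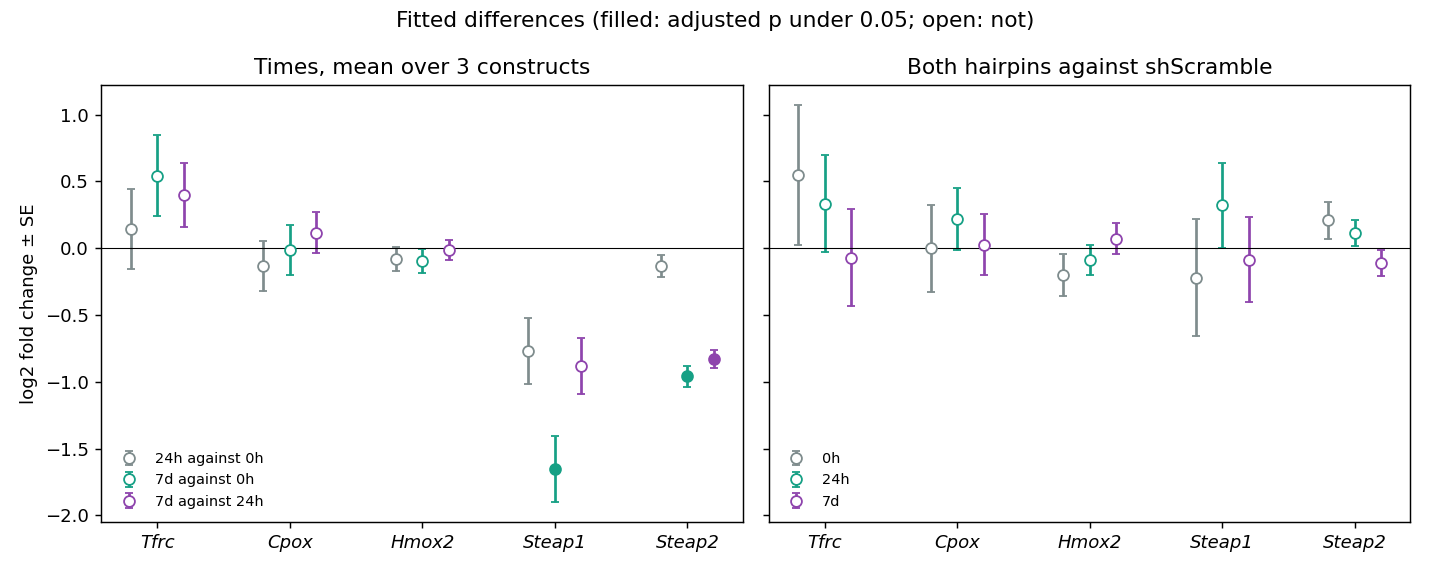
Log2 fold change ± SE (y axis) of each gene (x axis) between times, as the mean over 3 constructs (left), and between both hairpins and shScramble at each time (right); filled points passed an edgeR adjusted p of 0.05 and open points did not. The 3 filled points are Steap1 from 0h to 7d at -1.65 and Steap2 from 0h and from 24h to 7d at -0.96 and -0.83.

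A list of 84 other genes of iron uptake, storage, heme and iron-sulfur cluster assembly was found in the table, of which 5 had a trusted name and 4 enough counts to be tested. None of the 4 was called in any comparison, and their median log2 difference from 0h to 7d was -0.11, beside 0.068 over all rows. No gene of iron storage and export had a trusted name, so that ferritin and ferroportin are not described. Bach1, a heme-sensing transcriptional repressor, was at 118 ± 9.94 CPM at 0h (n = 3), 99.9 ± 11.8 CPM at 24h and 83.7 ± 9.80 CPM at 7d (n = 6 each). Its log2 difference from 0h to 7d was -0.50 ± 0.14 (edgeR adjusted p = 0.0859). Snx4, a sorting nexin that helps return the transferrin receptor to the surface, was at 238 ± 5.15, 270 ± 19.4 and 280 ± 34.5 CPM, a log2 difference of 0.23 ± 0.12 (edgeR adjusted p = 0.315). Nubp1, of the cytosolic iron-sulfur assembly, was at 94.3 ± 21.1, 80.2 ± 16.3 and 68.6 ± 16.1 CPM (log2 difference -0.45 ± 0.17, edgeR adjusted p = 0.188). Steap4, the metalloreductase whose row lies 3 coding rows beyond Steap1, was near the floor at 0.824 ± 0.626, 0.685 ± 0.502 and 3.76 ± 1.92 CPM. Its log2 difference from 24h to 7d was 2.37 ± 0.70 (edgeR adjusted p = 0.121). These values rest on few counts. The fifth gene, melanotransferrin, listed as Mfi2, was at 0.257 to 0.394 CPM and was not tested.

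The genes most like each of the 5 were sought by the correlation of log2 CPM over the 15 libraries, among 511 in-register coding genes of at least 20 CPM. Nearest to Steap1 were Runx1, a runt-family transcription factor (r = 0.93), Ehd1, an ATPase of endocytic recycling (r = 0.92), and Phldb2, a protein of the cell cortex (r = 0.91). Runx1 ranged from 31.5 to 148 CPM, a range near that of Steap1. Nearest to Steap2 were Ap2m1, a subunit of the clathrin adaptor AP2 (r = 0.92), Synj2, a phosphoinositide phosphatase (r = 0.91), and Mb21d2 (r = 0.90). Nearest to Tfrc were Tmem45a, a membrane protein (r = 0.86), Adprh, an ADP-ribosylarginine hydrolase (r = 0.84), and Srl, the sarcoplasmic protein sarcalumenin (r = 0.84). Nearest to Cpox were Timm44, of mitochondrial protein import (r = 0.87), Efnb2, an ephrin ligand (r = 0.83), and Boc, a hedgehog co-receptor (r = 0.83). Hmox2, which varied little, had weaker matches, with Cenpo of the centromere first (r = 0.81). Synj2 lies in a stretch of 17 coding rows on chromosome 17 and Cenpo in one of 16 on chromosome 12. Neither stretch held a gene of the commonly expressed families, so these 2 names are also less certain. The stretch of Timm44 and Efnb2 on chromosome 8 held 1 such gene. These r describe 15 libraries that share times, constructs and partner pairs.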

How the data were processed

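RNA-seq of 18 libraries was deposited by the authors as 1 table of raw read counts per gene. Per the submitters' processing notes, reads were checked with FastQC, aligned with TopHat2 2.0.9 to mm9, and DESeq and DESeq2 were used. For the counter, the strand setting and the gene annotation: not given in the sources used here. Gene identifiers are of the GRCm38 period (97.4% found in GENCODE vM21), so the table's coordinates were not used.

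Groups and numbers came from the sample titles. Stretches of coding rows whose names match the reads were sought per chromosome from which genes reached a mean of 20 CPM, with genes of commonly expressed families scored more heavily. These families therefore do not test the stretches independently. The deposited counts were tested with edgeR 4.0.16 in R 4.3.3: filterByExpr, TMM, 9 group means, robust quasi-likelihood, Benjamini-Hochberg over all 12930 rows, threshold 0.05, 6 residual degrees of freedom. The single 0h library of a construct was assumed to vary like the other groups. DESeq2 1.42.0 was an alternative. Tested on simulated counts for 7d against 24h (12341 rows), 10.4% of 67 rows changed 1.5-fold, 58.2% of 67 changed 2-fold and 80.3% of 66 changed 4-fold were recovered. For 7d against 0h, 1.49%, 25.4% and 71.2% were. The changed rows were picked among those with a mean of at least 20 CPM. Each library was drawn separately, without the likeness of partner pairs or of libraries of one number. The shares therefore need not hold for the real libraries.

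Libraries of one construct and number deviated together at 24h and 7d (r = 0.45, 0.50 and 0.51 over 530 rows), so a fit with that block was an alternative. Named were the 5 genes, list genes with trusted names and the 3 most correlated genes of each. The members and lists were chosen with earlier results of these data known.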

Additional observations from a re-analysis of the deposited data

How the results depend on the processing

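The fall of Steap2 from 0h to 7d kept its direction and its call under all 24 alternatives, with log2 differences from -1.33 to -0.89, and that from 24h to 7d under 25 of 26, the exception being all 18 libraries (adjusted p = 0.123). The fall of Steap1 from 0h to 7d kept its call under 23 of 24 (log2 -1.74 to -1.49), the exception being the replicate block. The direction held in all of these. Total counts of 3504810 to 6139320 per library limit rows of few counts such as Steap4, but not the 5 genes. With 1 library per construct at 0h, leaving it out drops the construct from the comparison.

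The number of rows called over the whole table moved more. With DESeq2 it was 582 for 24h against 0h (edgeR 240), 1427 for 7d against 0h (edgeR 745), 1100 for 7d against 24h (edgeR 302), 153 (20), 30 (2) and 30 (5) for the knockdown at 0h, 24h and 7d, 109 (1) over the times, 73 (13) for shRcor2-18, 71 (5) for shRcor2-20 and 35 (7) for the change of the knockdown from 24h to 7d. On the 630 in-register rows it was 36, 173 and 108 for the times, and 21, 87 and 59 on those of chromosome 16, with 0 for every comparison of hairpins. With the replicate block of the number within a construct it was 56, 432 and 169 for the times, and it changed no call of the 5 genes but that of Steap1. With the block of the partner pairs it was 595 for 7d against 24h, 0 for the knockdown at 7d and 1 for its change. With all 18 libraries it was 38 for 7d against 24h and 0 for every comparison of hairpins, and once sample 1 at 0h had a term it was 489 for 7d against 24h, 7 for the knockdown at 0h, 4 over the times, 8 for shRcor2-18 and 1 for shRcor2-20. With no filter on low counts it was 41 for the knockdown at 0h, 4 at 24h, 20 over the times, 20 for shRcor2-18 and 18 for shRcor2-20. On rows of at least 20 CPM it was 13 at 0h, 1 at 24h, 8 over the times and 4 for the change of the knockdown. With library size only it was 8 over the times, and 7d against 24h then had 130 rows higher and 220 lower, beside 149 and 153. Leaving out 1 library at a time gave 126 to 231, 310 to 762 and 120 to 307 rows for the times, 9 to 24, 2 to 12 and 5 to 15 for the knockdown at 0h, 24h and 7d, 0 to 14 over the times, 8 to 19 for shRcor2-18, 0 to 8 for shRcor2-20 and 4 to 11 for the change of the knockdown. The lowest counts for 24h and 7d against 0h, 126 and 310, were those without the shScramble library at 0h, and the lowest for 7d against 24h, 120, that without the shRcor2-20 library of sample 1 at 24h. The cause was not tested.

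The direction turned for differences that were called neither here nor under the alternative. With all 18 libraries the log2 difference of Tfrc was -0.64 for 24h against 0h and -0.23 for 7d against 0h, that of Hmox2 0.0011 for 7d against 24h, 0.031 for the knockdown at 0h, 0.0016 over the times and 0.0062 for shRcor2-20, and that of Steap1 0.29 for the knockdown at 0h, or 0.27 with the term for sample 1, where Hmox2 was at 0.00095 for 7d against 24h. On rows of at least 20 CPM Hmox2 was at 0.0011 there. Cpox was at 0.12 for 7d against 0h with the replicate block. For the knockdown at 0h Cpox was at -0.00071 with no filter, -0.0075 with RLE size factors, -0.064 with library size only and -0.0075 with DESeq2. Steap1 over the times was at -0.014, -0.0021, -0.036 and -0.0018 under these 4. With library size only Cpox was at -0.0077 for the knockdown at 7d and -0.0034 for shRcor2-18. At 7d the knockdown difference of Tfrc was 0.019 with the replicate block shared across constructs, and that of Cpox -0.081 with the block of partner pairs.

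Leaving out 1 library at a time gave log2 differences of -0.0051 to 0.26 for Tfrc from 0h to 24h, -0.11 to 0.072 for Cpox from 0h to 7d and -0.064 to 0.027 for Hmox2 from 24h to 7d. For the knockdown at 7d they were -0.54 to 0.63 for Tfrc, -0.13 to 0.20 for Cpox, -0.059 to 0.21 for Hmox2, -0.30 to 0.17 for Steap1 and -0.22 to 0.0036 for Steap2. For Cpox they were -0.083 to 0.086 at 0h, -0.073 to 0.58 at 24h and -0.015 to 0.20 over the times, and for Steap1 -0.10 to 0.12 over the times. For shRcor2-18 they were -0.10 to 0.34 for Tfrc, -0.062 to 0.15 for Cpox, -0.29 to 0.066 for Steap1 and -0.026 to 0.081 for Steap2, and for shRcor2-20 -0.0035 to 0.25 for Steap1. For the change of the knockdown they were -0.88 to 0.30 for Tfrc and -0.55 to 0.099 for Cpox.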

Other observations

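The 3 libraries left out, sample 1 of each construct at 0h, differed from sample 2 in most of the 5 genes, in CPM scaled by library size only (the TMM factors of the libraries of sample 2 were 0.989 to 1.04). Tfrc was at 586 CPM in shScramble, 554 CPM in shRcor2-18 and 379 CPM in shRcor2-20, above all 3 libraries of sample 2 at 0h (167 to 249.6 CPM). Hmox2 was at 316, 299 and 294 CPM and Steap2 at 1070, 983 and 1265 CPM, each above the range of sample 2. Cpox was at 115, 111 and 178 CPM, also above. Steap1 was at 107, 99.4 and 224 CPM, on both sides of the 121 to 142 CPM of sample 2. In 10 sets of 6 libraries, 1 per gene at 24h and at 7d, no library stood apart from the others by Dixon's criterion. This criterion looks for a single far library. Partners often lay close together, as with Tfrc at 449 and 445 CPM at 7d, so it could miss a pair that stood apart.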
